A study of Mus musculus with 32 samples.

Results

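Primary melanomas with very little skin RNA were compared between mice that lose E-cadherin in melanocytes (ΔEcad) and mice that keep it (Ecad). For each tumour, the level of Krt5 and Krt14, keratins of the basal layer of the epidermis, was taken as the mean of log2(TPM + 1), where TPM is a transcript level corrected for the length of the gene and the depth of the library. The 7 lowest of 16 ΔEcad tumours and the 7 lowest of 16 Ecad tumours were kept, 14 of 32 in all. The study sequenced polyadenylated RNA of primary melanomas of both genotypes and both sexes. Ecad mice are labelled Tyr::NrasQ61K;Cdkn2a-/+;°/°;Cdh1F/F: they express an activated NRAS under the tyrosinase promoter in melanocytes, lack 1 copy of the tumour suppressor gene Cdkn2a and carry floxed but intact Cdh1 alleles. ΔEcad mice share all of these alleles and in addition, by the methods of the study, carry Tyr::CreA/°, a Cre driven by the tyrosinase promoter, so that keratinocytes, fibroblasts and other host cells keep Cdh1. The labels of the ΔEcad tumours write Tyr::NRAS/° at that place. Both lines were on a C57BL/6J background, and ages were not in the labels.

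E-cadherin, encoded by Cdh1, is the calcium-dependent adhesion protein that holds melanocytes to the keratinocytes around them, and its cytoplasmic tail binds beta-catenin, which also acts as a transcriptional co-activator. Keratinocytes make far more E-cadherin than most other cells of the skin, so bulk RNA of a tumour that holds epidermis carries Cdh1 reads that do not come from melanoma cells. GRPR is a receptor of the gastrin-releasing peptide that couples to Gq and phospholipase C. In these bulk samples, fewer cells of a type and less RNA per cell cannot be told apart.

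The tumours were chosen by Krt5 and Krt14, so the levels of these keratins are a description. In the 7 Ecad tumours the Krt5 and Krt14 mean lay between 0 and 0.433, and the next Ecad tumour, female 3, was at 5.49. The 7 ΔEcad tumours were less uniform. Females 3 and 4 were at 0, males 7 and 8 at 0.0283, female 5 at 1.23, male 4 at 2.85 and male 6 at 4.74, and the next ΔEcad tumour, labelled male 2, was at 7.90. That library, which is not among the 14, held 0 Y-linked reads and 6.41 TPM of Xist, the RNA that silences an X chromosome in females. The other libraries labelled male held at least 1459 Y-linked reads, so the label of ΔEcad male 2 is not borne out. Without it, 2 tests were repeated (an alternative chosen after seeing the data). These were of genotype in the other tumours, and of the difference in genotype effect between skin-poor and other tumours. The skin-poor effect in the fit of all 32 tumours was not refitted without it. ΔEcad male 6 thus kept 19.0 TPM of Krt5 and 34.7 TPM of Krt14, against medians of 1850 TPM and 3036 TPM in the 9 ΔEcad tumours that were not selected. Of 20 keratinocyte genes only Krt10 and Sfn passed the filter on low counts, and of 14 hair follicle genes none did. The keratinocyte list summed to 5.52 to 13.4 TPM in the 7 Ecad tumours and to 7.51 to 93.9 TPM in the 7 ΔEcad tumours, below the 745 to 50990 TPM of the 18 other tumours.

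**Figure D1:**
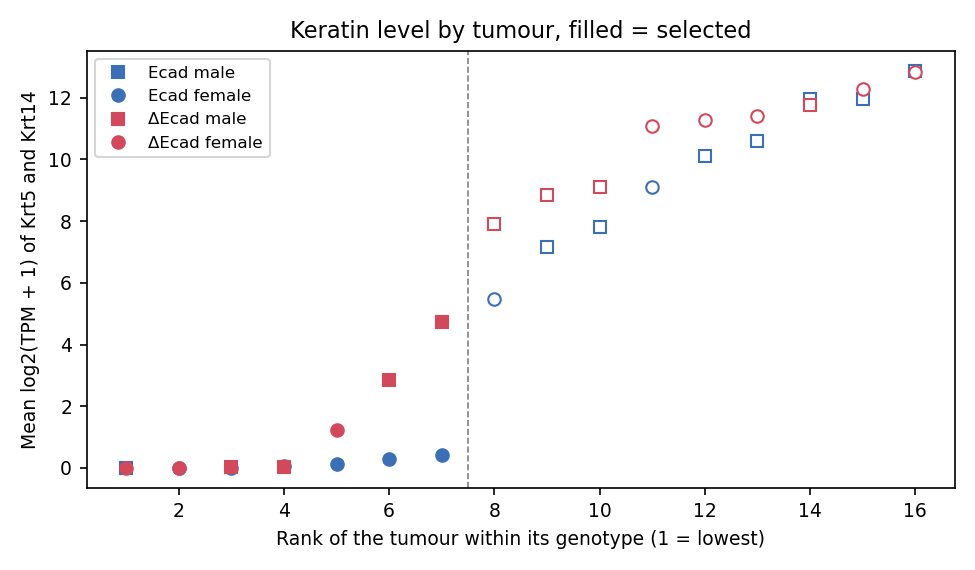
Mean log2(TPM + 1) of Krt5 and Krt14 (vertical axis) against the rank of each of the 32 tumours within its genotype (horizontal axis). Filled symbols left of the dashed line are the 14 selected tumours; the Ecad tumours stay at or under 0.433, whereas the last 3 ΔEcad tumours lie at 1.23 to 4.74.

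The selection did not balance sex. It holds 6 Ecad females and 1 Ecad male, but 3 ΔEcad females and 4 ΔEcad males, so sex was a term in the model and its Ecad side rests on Ecad male 7 alone. Total counts of the 14 tumours were 24036333 to 63923086.

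A pair of ΔEcad tumours stood apart from the other 12 in cell-type markers and bears on most of the results. ΔEcad male 7 was nearly devoid of melanocytic RNA: the 16 melanocytic genes summed to 47.4 TPM there, against 11123 to 41400 TPM in the other 6 ΔEcad tumours and 24822 to 81418 TPM in the Ecad tumours. Its Sox10, a transcription factor of the melanocyte lineage, was at 0.49 TPM and its Tyr, the enzyme tyrosinase, at 0.11 TPM, where the other 13 tumours held 436 TPM or more of Sox10 and 274 TPM or more of Tyr (both genes were chosen after their values were seen). The label of a melanoma is therefore not borne out by these markers in that tumour. ΔEcad female 3 kept melanocytic RNA but held very little RNA of blood vessels and blood cells: its endothelial list summed to 1.99 TPM, its macrophage list to 39.5 TPM and its red blood cell list to 0 TPM, the lowest of the 14 tumours for each. Both had the highest fibroblast sums, 10458 TPM in female 3 and 7725 TPM in male 7, above the 117 to 4643 TPM of the Ecad tumours and the 458 to 1610 TPM of the other 5 ΔEcad tumours. Main counts and gene groups are therefore given also without this pair, an alternative chosen after seeing the data. The pair was picked in part for its mesenchymal RNA, so a fall of mesenchymal genes without it describes where their level lay and is no separate test.

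Cdh1 itself (chromosome 8, 106603351 to 106670246, plus strand, GRCm38) was low in every skin-poor ΔEcad tumour. It stood at 0.17 TPM in female 3, 0.79 in male 6, 2.17 in male 7, 2.75 in male 4, 3.34 in male 8, 4.27 in female 4 and 4.51 in female 5. In the Ecad tumours it stood at 2.16 TPM in female 6, 5.96 in female 4, 15.2 in female 7, 21.6 in female 2, 25.0 in male 7, 66.9 in female 8 and 151 in female 1. The groups overlapped through Ecad female 6 alone, which lay below 5 of the 7 ΔEcad tumours. The log2 fold change was -3.56 (SE 1.01, edgeR's quasi-likelihood test, unadjusted p = 0.00349), and the adjusted p of 0.950 over 15247 genes did not pass 0.05. An exact two-sided permutation of the 7 and 7 values of log2(TPM + 1) gave a difference of -2.77 and p = 0.00524, with no account of the unequal sexes. Among females alone, 3 ΔEcad against 6 Ecad tumours, the difference was -2.69 with an exact permutation p of 0.0952. Without the pair the log2 fold change was -3.14 (SE 1.01, unadjusted p = 0.00911). Counts cover the whole gene, so transcripts read from exons outside the floxed part are included.

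In the tumours that were not selected, Cdh1 was higher in both genotypes, at 3.23 to 143 TPM in 9 ΔEcad tumours and 39.6 to 282 TPM in 9 Ecad tumours. The genotype effect there was -1.76 on the log2 scale (SE 0.733), and its difference from the effect in the skin-poor tumours, -1.70 (SE 1.13, unadjusted p = 0.142, adjusted p = 0.916), did not pass the threshold. Without the library labelled ΔEcad male 2 it was -2.07 (unadjusted p = 0.0716), and with no sex term -2.41 (unadjusted p = 0.0164, adjusted p = 0.619). Over 7 skin-poor ΔEcad tumours the mean was 2.57 TPM ± 1.65 (SD), and over the 9 others 58.6 TPM ± 48.1 (SD).

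**Figure D2:**
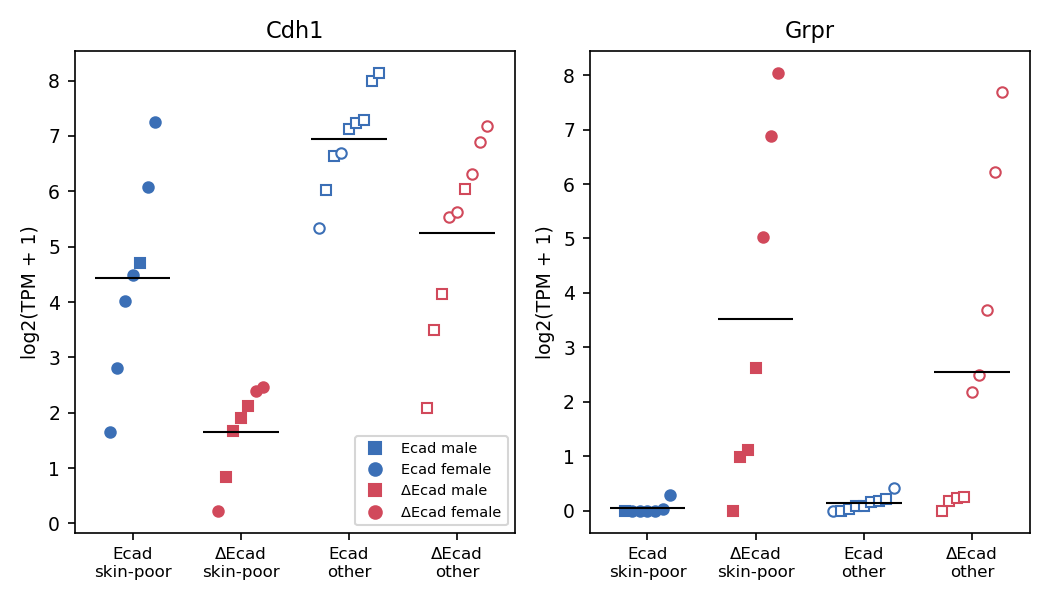
Levels of Cdh1 (left) and Grpr (right) as log2(TPM + 1) in each tumour, by genotype and selection; squares are tumours labelled male (ΔEcad male 2 included), circles females, filled symbols the skin-poor tumours, and black lines the group means of the plotted values. All 7 skin-poor ΔEcad tumours hold at most 4.51 TPM of Cdh1, and the 3 with over 31 TPM of Grpr are females.

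Grpr (chromosome X, 163513904 to 163549677, minus strand) rose in the ΔEcad tumours. It stood at 263 TPM in female 3, 117 in female 4, 31.5 in female 5, 5.14 in male 7, 1.16 in male 4, 0.98 in male 6 and 0 in male 8. Among the 7 Ecad tumours, female 4 held 0.22 TPM (5 reads), female 1 held 0.02 TPM (1 read) and 5 held no read. Hence 6 of 7 ΔEcad tumours were above every Ecad tumour, and male 8 was not; of the genes that passed the filter, 12 (0.0787%) had as many. The filter required a minimum level of reads, and not just any read, in 7 tumours and left Grpr out. The fit of Grpr was therefore made without the filter over 30216 genes, a choice made after seeing the data. Grpr alone was called there (0.00331%), with a log2 fold change of 11.79 (SE 1.39, adjusted p = 0.0191, edgeR). With 6 reads over all 7 Ecad tumours, against 15160 in the ΔEcad tumours, this size depends on the prior count and says little beyond a very large ratio. The model also gave both sexes the same genotype effect, although ΔEcad females and males did not overlap in Grpr. Exact permutation of log2(TPM + 1) gave a difference of 3.48 with p = 0.00466.

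The ΔEcad females and males did not overlap in Grpr, at 31.5 to 263 TPM against 0 to 5.14 TPM, and the exact permutation p of 0.0571 is the smallest that 3 against 4 tumours can give. Among females alone, 3 ΔEcad and 6 Ecad tumours differed by 6.60 on the log2(TPM + 1) scale (exact permutation p = 0.0238, the smallest this design allows), and in a fit of the females 1 of 16619 genes was called (0.00602%), which was Grpr (log2 fold change 11.87, adjusted p = 0.0253). Grpr passed the filter of that fit through the ΔEcad females alone, with 1310 to 9444 reads against 0 to 5 in the Ecad females, so it had to differ there and the call is no separate support. Without the filter, a fit of the females chosen after seeing the data, the adjusted p was 0.0156. Males alone could not be tested, since 1 Ecad male was selected. The adjusted p of Grpr was sensitive to the tumours and model: it was 0.523 with no sex term and 0.0717 with the Krt5 and Krt14 mean as a covariate. It was 0.0422 without ΔEcad female 3 and male 7 together, 0.0746 without female 3 alone, and from 0.0501 to 0.140 without any 1 of 9 tumours, named with the alternatives.

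Its ligands and signalling partners gave no further call. Grp, the gene of the gastrin-releasing peptide, reached at most 1.34 TPM in a ΔEcad tumour and 0.12 TPM in an Ecad tumour and was not tested. Of 16 genes of the GRPR pathway 12 were tested and 1 had an unadjusted p under 0.05, Plcb1, a phospholipase C downstream of Gq, at 1.83 (SE 0.748, unadjusted p = 0.0280). Plcb1 reached 7.25 TPM in female 3 and 3.64 TPM in male 7, against 0.23 to 1.09 TPM in Ecad tumours, and its log2 fold change was 0.23 without the pair, when no gene of the list had an unadjusted p under 0.05. Nmb, the gene of the related peptide neuromedin B, had a log2 fold change of 1.09 (SE 0.911, unadjusted p = 0.250).

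Across all genes, none of 15247 passed both limits of a call, an adjusted p under 0.05 with edgeR and a log2 fold change beyond 1 in either direction, and the smallest adjusted p was 0.950. At an unadjusted p under 0.05 were 617 genes, 4.05% of those tested; 453 were higher in ΔEcad tumours (2.97%) and 164 lower (1.08%). DESeq2 called 15 genes (0.101% of 14919) and limma voom none, with 1207 genes at an unadjusted p under 0.05. Most of the higher genes peaked in ΔEcad female 3, which held the highest ΔEcad level for 283 of the 453 (62.5%, against 26.3% of all genes tested). ΔEcad male 7 held it for 93 (20.5%), near its share of all genes tested (20.2%). Female 3 and male 7 were together the highest 2 tumours for 258 (57%), a count that was not made over all genes. Without both, 255 genes were higher (1.62% of 15769) and 185 lower (1.17%) at the same p, no gene was called, and 175 of the 617 genes were under 0.05 in both fits. The fits share all tumours but the pair, so this overlap is no separate support.

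**Figure D3:**
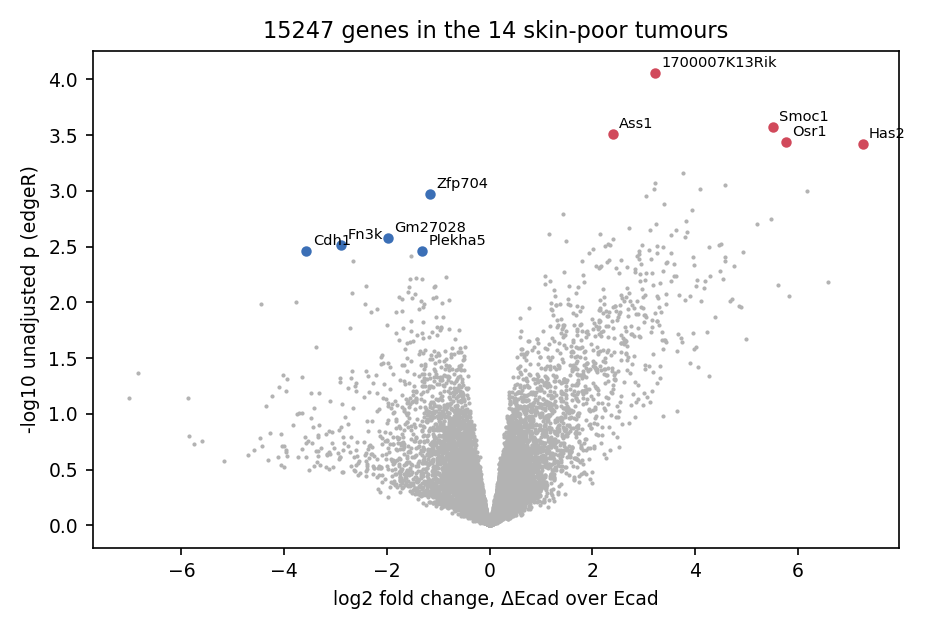
Log2 fold change, ΔEcad over Ecad (horizontal axis), against -log10 of the unadjusted edgeR p (vertical axis) for the 15247 genes tested in the 14 skin-poor tumours. Named are the 5 lowest p-values per direction; none passed the adjusted threshold, and higher genes outnumber lower ones at small p.

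The 5 genes with the smallest p among those higher in ΔEcad tumours, none of them called, divide by whether they depend on these tumours. Ass1, argininosuccinate synthase of the urea cycle and of arginine synthesis (chromosome 2, 31470207 to 31520672), is one that does not. Its levels were 38.5 TPM in male 6, 38.7 in male 8, 41.6 in male 4, 42.1 in female 5, 118 in female 4, 149 in female 3 and 163 in male 7. In Ecad tumours it was at 8.45 TPM in male 7, 9.39 in female 1, 12.9 in female 6, 14.5 in female 8, 20.7 in female 7, 28.5 in female 2 and 57.3 in female 4. Thus Ecad female 4 was the tumour through which the groups overlapped. The log2 fold change of Ass1 was 2.40 (SE 0.505, unadjusted p = 0.000312) and 2.13 without the pair (unadjusted p = 0.000705). The adjusted p was 0.950 with edgeR and 0.00688 with DESeq2.

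The transcript 1700007K13Rik had the smallest p of all (log2 fold change 3.23, SE 0.595, unadjusted p = 8.8e-05; 3.15 without the pair) at low levels. ΔEcad tumours held 7.50 TPM in female 3, 4.65 in female 5, 2.86 in female 4, 1.80 in male 4, 1.19 in male 6, 0.74 in male 8 and 0.08 in male 7. Ecad tumours held 0.09 to 0.93 TPM, so 5 of 7 ΔEcad tumours were above them all and male 7 was below them all. In reads this was 1 to 12 in Ecad and 1 to 103 in ΔEcad tumours. The gene passed the filter largely through the ΔEcad tumours, where it was high, so its p is no separate support.

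Has2 and Smoc1, and Osr1 for the most part, moved with ΔEcad female 3. Has2, which synthesizes the extracellular polysaccharide hyaluronan, stood at 365 TPM in female 3 and 20.7 TPM in male 7, but at 0.23 to 2.05 TPM in the other 5 ΔEcad tumours and 0.08 to 1.28 TPM in the Ecad tumours. Its log2 fold change was 7.26 (SE 1.56) with all tumours and 0.57 (unadjusted p = 0.594) without the pair, and it was 0.79 without female 3 alone but 6.90 without male 7 alone. Osr1, a zinc-finger transcription factor of embryonic mesoderm, was at 84.3 TPM in female 3 and 36.2 TPM in male 7, with at most 2.31 TPM elsewhere, and its fold change went from 5.77 to 2.34 (unadjusted p = 0.00520), with 3.02 without female 3 alone and 5.08 without male 7 alone. Smoc1, a secreted matrix protein that modulates BMP signalling, was at 57.1 TPM in female 3 alone and at most 1.92 TPM in the others, with 5.52 against 2.66 without the pair (unadjusted p = 0.00217), 2.78 without female 3 alone and 5.50 without male 7 alone. In Ecad tumours Smoc1 held 1 to 15 reads and Osr1 3 to 21, and in ΔEcad tumours 5 to 2843 and 18 to 2479. Smoc1 and Osr1 thus passed the filter largely through the ΔEcad tumours, where they were high, so their p is no separate support. Osr1, Has2 and Smoc1 overlap other annotated transcripts, and the counting is not stated to use strand. The same holds below for Zfp704 and Plekha5, and for Raver2, Grm5 and Slpi among the DESeq2 calls.

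Among the lower genes, the 5 with the smallest p were Zfp704, Gm27028, Fn3k, Plekha5 and Cdh1, and these depended little on the pair. Zfp704, a zinc-finger protein, was at 4.92 to 22.3 TPM in ΔEcad and 11.4 to 37.5 TPM in Ecad tumours, a log2 fold change of -1.16 (SE 0.282, unadjusted p = 0.00107) that was -1.04 without the pair. Fn3k, a kinase that removes sugar adducts from proteins, was at 0.02 to 0.28 TPM against 0.10 to 1.87 TPM, with -2.88 (SE 0.807) and -2.93 without the pair. Plekha5, a pleckstrin-homology protein, was at 15.3 to 56.8 TPM against 37.3 to 136 TPM, with -1.31 (SE 0.375) and -1.18. Gm27028, which overlaps the microRNA gene Mir30c-2, was at 0.22 to 3.81 TPM against 2.18 to 11.1 TPM, with -1.97 (SE 0.542) and -1.80. In reads, Gm27028 held 1 to 17 in ΔEcad and 13 to 67 in Ecad tumours, and Fn3k 1 to 16 and 4 to 135. Both passed the filter largely through the Ecad tumours, where they were high, so their p is no separate support. The groups overlapped in each of the 5. No gene tested was higher in all ΔEcad tumours than in all Ecad tumours, and 1 gene (0.00656% of those tested), Gm42984, was lower in all of them; it was singled out after its values were seen.

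**Figure D4:**
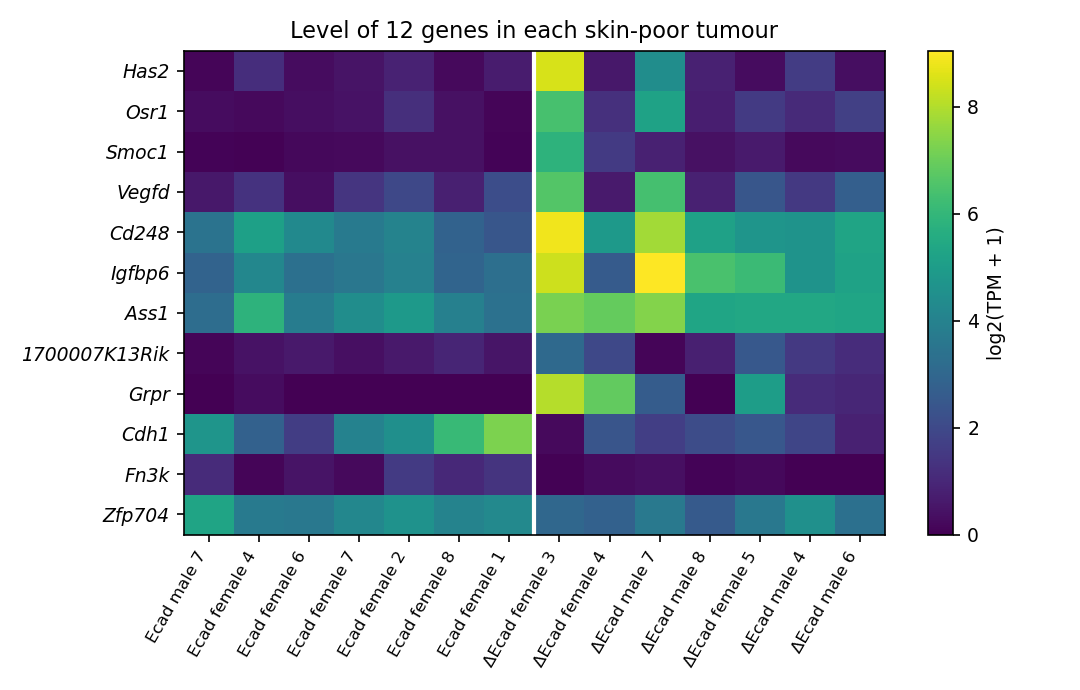
Level as log2(TPM + 1), by colour, of 12 genes (rows) in the 14 skin-poor tumours (columns, Ecad left and ΔEcad right of the white line). Has2, Osr1, Vegfd and Cd248 are brightest in ΔEcad female 3 and male 7, whereas Ass1 is at 38.5 TPM or more in all 7 ΔEcad tumours; 3 rows (Vegfd, Cd248, Igfbp6) were chosen after their values were seen.

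Mesenchymal gene groups were highest in the same tumours. Of 12 fibroblast genes 9 had a log2 fold change above 0 with a median of 1.73, and 4 had an unadjusted p under 0.05 on the higher side, beside a median of 0.016 and 2.97% over all genes. Pdgfrb, a receptor of platelet-derived growth factor, was at 224 TPM in female 3, 111 TPM in male 7 and 15.2 to 32.2 TPM in the other ΔEcad tumours, against 6.10 to 61.3 TPM in Ecad tumours (1.77, SE 0.645, unadjusted p = 0.0160). Col3a1, a fibrillar collagen, was at 2818 TPM and 1810 TPM in the pair, at 83.6 to 443 TPM in the other ΔEcad tumours and at 22.1 to 845 TPM in Ecad tumours (2.30, SE 1.01, unadjusted p = 0.0386). Without the pair 6 of the 12 were above 0, the median was -0.03 and no gene had a p under 0.05, and the median was 0.24 without female 3 alone and 1.61 without male 7 alone.

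The genes of epithelial-mesenchymal transition did likewise, with 9 of 12 above 0, a median of 1.39 and 4 genes under 0.05, which became 6 of 12, a median of 0.01 and no gene without the pair; the median was 0.30 without female 3 alone and 1.20 without male 7 alone. Snai1, a repressor that binds the Cdh1 promoter in other systems, stood at 533 TPM in female 3 and 128 TPM in male 7, and at 7.25 to 18.04 TPM in the other 5 ΔEcad tumours, within the 1.37 to 25.6 TPM of Ecad tumours. Its log2 fold change was 3.83 (SE 1.00, unadjusted p = 0.00186) and 0.67 without the pair (unadjusted p = 0.445). Foxc2, a forkhead factor of mesenchyme, went from 3.63 (unadjusted p = 0.00583) to 0.98 (unadjusted p = 0.297), and Prrx1, a mesenchymal homeobox factor, from 3.00 (unadjusted p = 0.0131) to 1.58 (unadjusted p = 0.172). Of the classical cadherins, Cdh11, found in mesenchyme, was at 140 TPM in female 3 and 69.3 TPM in male 7 and at 0.56 to 3.90 TPM in the other ΔEcad tumours, against 0.23 to 6.19 TPM in the Ecad tumours, and its log2 fold change turned from 3.90 (unadjusted p = 0.00882) to -0.75 (unadjusted p = 0.542). Of 12 tested cadherin and catenin genes, Cdh1 and Cdh11 alone had an unadjusted p under 0.05. Ctnnb1, which encodes beta-catenin, was at 313 to 900 TPM against 764 to 1277 TPM (-0.49, SE 0.295, unadjusted p = 0.119).

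The direction of 3 further lists turned on ΔEcad female 3. The median log2 fold change of the YAP1 targets went from 0.32 (10 of 12 above 0) to -0.26 (3 of 12), that of the invasive list from 0.66 (5 of 6) to -0.43 (1 of 6), and that of the cell cycle list from 0.35 (12 of 14) to -0.42 (1 of 14, with 2 lower genes at an unadjusted p under 0.05) when the pair was left out. Without female 3 alone the medians were -0.23, -0.29 and -0.23, and without male 7 alone they were 0.23, 0.65 and 0.23. Aurka, a mitotic kinase, was at 96.5 TPM in female 3, and at 3.74 to 42.7 TPM in the ΔEcad tumours outside the pair, against 12.1 to 32.9 TPM in Ecad tumours (0.74, SE 0.509, unadjusted p = 0.170; 0.05 without the pair). Axl, a receptor tyrosine kinase, was at 394 TPM in male 7 and 245 TPM in female 3, and at 6.64 to 60.2 TPM in the other ΔEcad tumours, against 7.91 to 119 TPM in Ecad tumours. Loxl2, a lysyl oxidase that crosslinks collagen, had a log2 fold change of -1.98 (SE 0.849, unadjusted p = 0.0354) and -1.46 without the pair (unadjusted p = 0.0793).

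**Figure D5:**
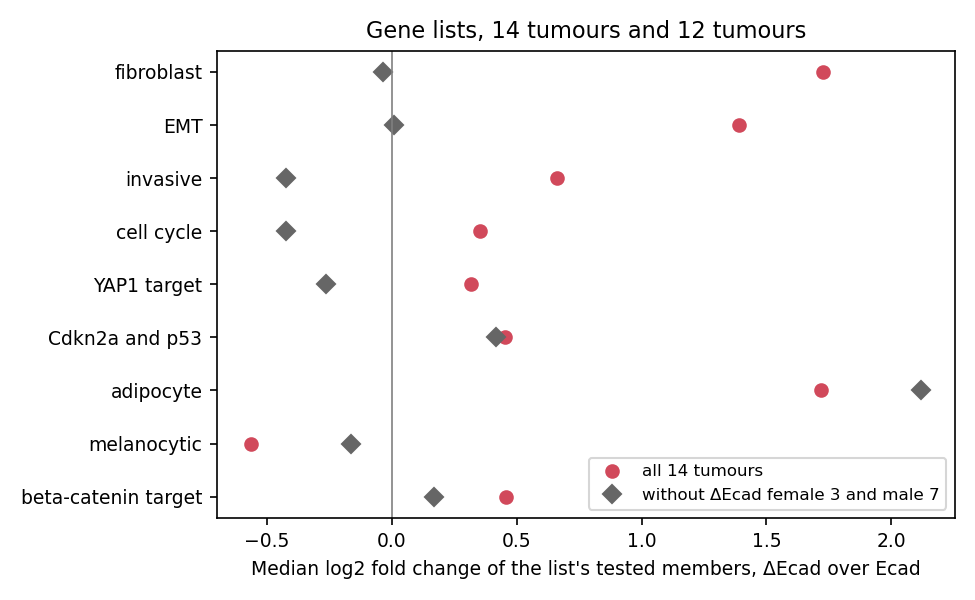
Median log2 fold change, ΔEcad over Ecad (horizontal axis), of the tested members of 9 gene lists in all 14 skin-poor tumours (circles) and in the 12 without ΔEcad female 3 and male 7 (diamonds). The fibroblast median goes from 1.73 to -0.03, whereas that of the Cdkn2a and p53 list stays near 0.4.

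The Cdkn2a and p53 list changed little with the pair: 11 of 12 genes were above 0 with a median of 0.45, and without the pair 11 of 12 with 0.42. With all tumours 2 genes had an unadjusted p under 0.05 and without the pair 4 did, where 1.62% of all genes were higher at that p. Cdkn2a, the cell cycle inhibitor and p53 regulator of which these mice carry 1 intact copy, stood at 94.9 TPM in female 3, 37.6 in female 5, 32.9 in male 4, 24.7 in male 8, 22.8 in male 7, 14.1 in female 4 and 11.5 in male 6. Ecad tumours held 8.11 TPM in male 7, 12.8 in female 4, 12.9 in female 2, 14.5 in female 6, 18.4 in female 1, 19.3 in female 8 and 22.1 in female 7. Female 4 and male 6 were within the Ecad range and the other 5 ΔEcad tumours above it. The log2 fold change was 1.48 (SE 0.410, unadjusted p = 0.00281) and 1.05 without the pair (unadjusted p = 0.0414). Sesn2, a stress-induced p53 target, had 1.21 (SE 0.419, unadjusted p = 0.0117; 1.38 without the pair), and Cdkn1a, the p53 target p21, had 0.79 (SE 0.423, unadjusted p = 0.0824; 0.87 without the pair, unadjusted p = 0.0393).

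Melanocytic genes were mostly lower in the fit but not beyond their error. Of 16, 13 had a log2 fold change below 0, with a median of -0.57, and none had an unadjusted p under 0.05. Without the pair 9 of 16 were at or below 0 and the median was -0.16. Pmel, the fibril protein of melanosomes, was at 759 to 10605 TPM in the 6 ΔEcad tumours other than male 7 and at 1277 to 16560 TPM in the Ecad tumours (-2.18, SE 1.09, unadjusted p = 0.0652), and had an unadjusted p of 0.0412 without the pair. Mitf, the master regulator of melanocytes, had -1.09 (SE 0.611, unadjusted p = 0.0968), and Gpr143, a melanosomal receptor, had -1.61 (SE 0.966, unadjusted p = 0.119). The MAPK feedback list, read out of NRAS signalling, had a median of 0.04 with no gene under 0.05 (0.29 and no gene without the pair), and its Ccnd1 (cyclin D1, also a beta-catenin target) was at 788 to 1246 TPM against 967 to 2199 TPM (-0.62, SE 0.327, unadjusted p = 0.0772).

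Of 16 beta-catenin targets 11 were tested, 7 were above 0 and 2 had an unadjusted p under 0.05, both of them inhibitors of Wnt signalling. Over all genes 7906 of 15247 were above 0 and 2.97% were higher at that p. The median log2 fold change was 0.46 and, without the pair, 0.17, with 2 genes under 0.05. Without female 3 alone it was -0.01. The 16 genes summed to 985 to 1992 TPM in ΔEcad tumours (median 1140) and to 1177 to 2654 TPM in Ecad tumours (median 1973), which was not tested. Wif1, which binds Wnt ligands outside the cell, had a log2 fold change of 5.83 (SE 1.91, unadjusted p = 0.00875) and 6.60 without the pair; it reached 45.0 TPM in ΔEcad tumours with a median of 1.21 TPM, against at most 1.75 TPM in Ecad tumours. Apcdd1, a membrane inhibitor of Wnt reception, was at 69.4 TPM in male 7 and 48.5 TPM in female 3 and at 0.69 to 9.10 TPM in the other ΔEcad tumours, and went from 3.14 (unadjusted p = 0.0186) to 0.33 (unadjusted p = 0.801). Of 9 tested steroid hormone receptor and enzyme genes, Akr1c14, a hydroxysteroid dehydrogenase, had an unadjusted p of 0.00367 (2.91, SE 0.834) and 1.53 without the pair (unadjusted p = 0.0616), and the median of the list went from 0.08 to -0.01. Of the ER activation list 2 of 9 genes were tested: Sdk2 had a log2 fold change of 1.36 (unadjusted p = 0.0375) at 0.05 to 0.64 TPM, which was 0.38 without the pair (unadjusted p = 0.522), and Egr3 had -0.51 (unadjusted p = 0.381). Esr1, the oestrogen receptor (chosen after its values were seen), was at 0.37 to 2.20 TPM against 0.63 to 3.83 TPM (-0.21, SE 0.691).

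Host-cell lists were read for what else the tumours held. The adipocyte list was above 0 in 9 of 9 tested genes, with a median of 1.72 and no gene under 0.05, and without the pair it was above 0 in 9 of 9 with a median of 2.12 and 3 genes under 0.05. Plin1, a coat protein of fat droplets, was at 0.19 to 5.56 TPM against 0 to 1.96 TPM, and Adipoq, the fat-cell hormone adiponectin, at 1.37 to 46.4 TPM against 0.08 to 14.5 TPM. The summed adipocyte level was 10.3 to 620 TPM against 15.3 to 215 TPM. The endothelial median was 0.35 with no gene under 0.05, and 0.85 without the pair, with 2 genes under 0.05, Cldn5 and Esam, both of endothelial junctions. The macrophage median moved from 0.26 to 0.82 without the pair and that of T and NK cells from -0.39 to 0.36. Without female 3 alone they were 0.88 and 0.34, and without male 7 alone 0.18 and -0.39. The pair was opposite here. The T and NK cell sum was 210 TPM in male 7, the highest of the 14, and 1.68 TPM in female 3, the lowest. The macrophage sums were 7056 TPM and 39.5 TPM. Neutrophil genes (8 of 8) and B and plasma cell genes (4 of 4) were below 0, with medians of -2.91 and -3.09 and no gene under 0.05 (-1.91 and -3.47, and no gene, without the pair); both lists ranged widely within a genotype, the B and plasma cell sum from 2.83 to 22955 TPM in the Ecad tumours. Skeletal muscle genes were below 0 in 10 of 10, with a median of -1.50 and no gene under 0.05, and in 11 of 12 with -1.16 without the pair. The median sums of these lists were not lower in ΔEcad than in Ecad tumours. They were 103 against 27.7 TPM for neutrophil, 73.1 against 44.7 TPM for B and plasma cell, and 34.25 against 32.35 TPM for skeletal muscle genes. The highest sums lay in Ecad tumours, at 10300, 22955 and 5290 TPM, against 4204.5, 9562.4 and 2331.5 TPM in ΔEcad tumours. The 10 other lists tested (among them MHC class II, interferon-stimulated, hypoxia and glycolysis, Schwann and neural, epithelial junction and red blood cell genes) had medians from -2.50 for 2 salivary and mucosal genes to 0.67 for 6 red blood cell genes, and no gene under 0.05. The part of these cells in the genotype differences was not tested.

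Of the 15 genes that DESeq2 called on the same counts, 11 were higher and 4 lower. Apart from Ass1 and 1700007K13Rik, they were chosen after their values were seen. Igfbp6, an insulin-like growth factor binding protein, was at 528 TPM in male 7, 327 in female 3, 86.5 in male 8, 70.9 in female 5, 36.3 in male 6, 23.8 in male 4 and 5.09 in female 4, against 6.31 to 17.2 TPM in Ecad tumours. Thus 6 of 7 ΔEcad tumours were above every Ecad tumour and female 4 was below them all, with log2 fold changes of 3.77 and, without the pair, 2.36 (edgeR, unadjusted p = 0.00629). Gzmc, a granzyme of cytotoxic lymphocytes, was at 9.30 to 79.3 TPM in 5 ΔEcad tumours and at 0.60 and 0.61 TPM in females 3 and 4, against 0 to 1.10 TPM in Ecad tumours (4.28, and 4.82 without the pair). It held 0 to 18 reads in Ecad and 8 to 955 in ΔEcad tumours, so it passed the filter largely through the ΔEcad tumours. Vegfd, a growth factor of lymphatic vessels, was at 97.3 TPM in female 3 and 82.4 TPM in male 7 and at most 5.73 TPM elsewhere, and went from 4.47 to 1.31. Cd248, a glycoprotein of stromal cells, went from 3.22 to 1.30. The lower genes were Rragb, Raver2, Grm5 and Slpi. Slpi, a secreted protease inhibitor, was at 286 TPM or more in Ecad females 4, 6 and 7 and at 25.0 TPM or less in the other Ecad tumours, and the glutamate receptor gene Grm5 was at 23.8 TPM in Ecad female 6 and 13.1 TPM in female 8 and under 1 TPM elsewhere.

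Whether the genotype effect differed between the skin-poor and the other tumours was tested in all 32 tumours with an interaction. No gene of 17981 was called (edgeR, smallest adjusted p = 0.118, 1134 genes or 6.31% at an unadjusted p under 0.05), limma voom also called none, while DESeq2 called 64, 44 with a more positive effect in the skin-poor tumours and 20 with a more negative one. Grpr had a genotype effect of 11.88 in the skin-poor and 2.96 in the other tumours, a difference of 8.92 (SE 2.11, adjusted p = 0.208) that was 2.77 with no sex term. By mean level it was at 59.9 TPM in ΔEcad against 0.0343 TPM in Ecad among the skin-poor tumours and at 33.3 against 0.103 TPM among the others, so these fitted effects, which rest on few reads in Ecad tumours, are not sizes to compare. Osr1 had effects of 5.56 and -0.96 (difference 6.53, SE 1.34, adjusted p = 0.118). Cdkn2a had effects of 1.34 and -0.92 (difference 2.26, SE 0.592, adjusted p = 0.312). None of these differences passed the adjusted threshold with edgeR, whereas DESeq2 called all 3 (adjusted p = 0.00105 for Grpr, 4.7e-05 for Osr1 and 0.0299 for Cdkn2a). Without the library labelled ΔEcad male 2, edgeR again called no gene, and the differences were 8.65, 6.29 and 2.21. Among the 18 other tumours alone, no gene was called for genotype (1445 genes, 8.04%, at an unadjusted p under 0.05, and 1183 without the library labelled ΔEcad male 2).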

How the data were processed

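RNA of primary mouse melanomas was sequenced by the authors as stranded polyA libraries (paired reads of 100 bases) and mapped with STAR to mm10 (GRCm38.p5) with GENCODE annotation. FastQC 0.11.5 is named in the submitters' processing notes. The authors deposited raw counts per gene and TPM for 50600 genes; batch correction is described where applicable, without saying whether these tumours had it. Coordinates and symbols came from GENCODE on GRCm38 and named 50376 of the identifiers. Groups came from the labels, which give no batch. Separate tumours were treated as replicates, and nothing states whether 1 mouse gave more than 1.

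Counts of the 14 tumours were tested with the quasi-likelihood test of edgeR 4.0.16 (two-sided, TMM, filterByExpr by genotype, robust; terms for sex and genotype), with Benjamini-Hochberg adjustment. A call required an adjusted p under 0.05 and a log2 fold change beyond 1 in either direction. The SE was derived from the test statistic. Levels are TPM, and log2(TPM + 1) uses a pseudocount of 1. Alternatives used DESeq2 1.42.0 and limma 3.58.1 (R 4.3.3), with single genes tested by exact permutation in Python 3.11.15. The model was tested on simulated data. Total counts were 24036333 to 63923086, and a count of 0 allows up to 3 counts, covering counting error only.

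Named genes were Cdh1, Grpr, the 5 with the smallest p in each direction where none was called, and up to 3 members with the smallest p from each of 33 lists (383 entries). The members and lists were chosen with earlier results of these data known.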

Additional observations from a re-analysis of the deposited data

Results flagged for a closer look

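Among 22 groups of 7 tumours (11 named genes in each genotype, as log2(TPM + 1)), 3 had a tumour whose gap to the nearest of the others, as a share of the group's range, was above Dixon's critical value. The nominal rate of 1 in 20 groups holds for normal values that were not selected. Most of these genes were picked for a small p and some groups lie near the floor. The count of 3 in 22 can therefore not be set against that rate. Grpr in Ecad female 4, at 0.22 TPM against 0.02 TPM in the next Ecad tumour, had a gap of 0.9, and this tumour held 5 of the 6 Grpr reads of the Ecad group. Smoc1 in ΔEcad female 3, at 57.1 TPM against 1.92 TPM in the next ΔEcad tumour, had a gap of 0.764. Osr1 in Ecad female 2, at 1.3 TPM against 0.36 TPM in the next Ecad tumour, had a gap of 0.712.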

How the results depend on the processing

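The count of called genes was 0 in the 14 tumours and 0 under 15 other settings, including the replicate block. It was 15 with DESeq2, and 1 with no filter on low counts, with all 32 tumours in 1 fit and with females alone, the gene being Grpr, which entered the filtered fits only through the ΔEcad tumours where it was high. With 1 tumour left out and the filter kept, it was 0 to 1, and the 1 gene was again Grpr, without Ecad male 7, without Ecad female 4 or without ΔEcad male 8. At an unadjusted p under 0.05 were 374 genes without ΔEcad female 3, 942 without ΔEcad female 5, 1608 with no filter and 1207 with limma voom, against 617. The interaction gave 0 genes in 7 other settings, among them without the library labelled ΔEcad male 2, and 64 with DESeq2. The Cdh1 log2 fold change was negative throughout, from -4.14 to -2.02, passed no adjusted threshold, with an adjusted p of 0.0523 with DESeq2, and from -3.82 to -2.99 with 1 tumour left out; the exact permutation of log2(TPM + 1) gave -2.77 with p = 0.00524. In fits without the filter, the log2 fold change of Grpr kept its sign throughout, but lost its call with no sex term (10.84), with the 5 lowest (11.32) or 6 lowest (11.62) tumours per genotype, with the keratin covariate (11.79), with tumours under a keratin mean of 2 (11.80, chosen after seeing the data) and with a replicate block (10.66). With 1 tumour left out, again without the filter, it was 11.10 to 13.67, and the call was lost without Ecad male 7, Ecad females 1, 2, 6, 7 or 8, ΔEcad male 6 or ΔEcad females 3 or 4; the cause was not tested. Its adjusted p ranged from 2.3e-12 with DESeq2 to 1 with the replicate block. Of 284 values of the other 9 named genes under alternatives, none reversed and 2 (Ass1 and 1700007K13Rik with DESeq2) passed the threshold; DESeq2 gave Osr1, Smoc1 and Has2 no adjusted p. Since none of the 9 passed it at first, this says little of their stability, and the log2 fold change of 5 of them moved by over 1.5 times, that of Has2 from 7.26 to 0.57. Tumours that share a number came from different mice. The deviations of such tumours of unlike genotype correlated at -0.085 to 0.451. Tumours of unlike number were not compared, so these values cannot show whether a number marks a pair. Males alone could not be fitted, since 1 Ecad male was selected. With 1 Ecad male, effects of sex and genotype are only partly separable in these 14 tumours.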
